A study of Mus musculus with 3 samples.

Results

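The genes described here are the metalloproteinases that cut extracellular matrix and cell-surface proteins, together with their tissue inhibitors, in microvascular fragments of mouse brain. They were taken by symbol from the count table: the matrix metalloproteinases (Mmp genes), the ADAM proteases (Adam), the ADAMTS proteases (Adamts), the ADAMTS-like proteins (Adamtsl) and the tissue inhibitors of metalloproteinases (Timp1 to Timp4). The table of 56941 genes holds 85 of them, namely 23 Mmp, 34 Adam, 19 Adamts, 5 Adamtsl and 4 Timp genes. The 3 libraries of polyadenylated RNA came from adult wild-type C57BL/6J mice, untreated as far as the labels go, whose sex and exact age are not given. They form 1 group (n = 3), so no condition is compared with another, and the comparisons below are between members, between the members and all genes, and between the mice. The design text speaks of 3 mice, and the replicates were taken as separate animals on that text. Brain tissue was broken up by mechanical and enzymatic means before the vessels were collected, per the labels' protocols. Fragments of this kind are short pieces of small vessel that keep the endothelium with the cells attached to it, and in such bulk material fewer cells of a type and less RNA per cell cannot be told apart.

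Matrix metalloproteinases degrade collagens, laminins and other components of the basement membrane, and they are made as inactive precursors that other proteases must cleave. ADAM proteases sit in the plasma membrane and release the outer parts of receptors, growth factors and adhesion molecules, whereas ADAMTS proteases are secreted and bind to the matrix, where several of them cut proteoglycans. TIMP proteins bind the active site of matrix metalloproteinases and block it, and they block only some of the ADAM and ADAMTS proteases. In the brain, loss of the balance between gelatinases and inhibitors has long been linked to opening of the blood-brain barrier.

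Depth ran from 128428355 to 150449539 counts per library, so that a count of 0 allows up to 0.0199 to 0.0234 CPM (counts relative to library size), for counting error only. All 5 endothelial markers were detected, with Cldn5 at 2821 to 3837 CPM, as were all 3 markers of smooth muscle (summed level 4537 to 5203 CPM), all 3 of pericytes (Rgs5 at 1928 to 2256 CPM) and all 4 of microglia (summed level 3243 to 4358 CPM). All 3 markers of astrocytes (671 to 1367 CPM, mostly Slc1a2) and of choroid plexus (4925 to 8009 CPM, mostly Ttr) were detected too. The astrocyte markers Gfap and Aqp4 had means of only 33.9 ± 4.93 and 24.0 ± 7.49 CPM. Sums were 12.3 to 24.2 CPM for 3 neuronal, 111 to 132 CPM for 4 fibroblast (mostly Col1a2) and 93.0 to 109 CPM for 3 oligodendrocyte markers. The libraries differed in 3 other lists. Markers of red blood cells summed to 874, 106 and 48.8 CPM in replicates 1, 2 and 3, pituitary hormone genes to 1.23, 1326 and 1.87 CPM, and the early response genes Fos, Egr1, Nr4a1 and Dusp1 to 332, 1205 and 769 CPM.

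The family was split between a few abundant genes and many near or at 0. A gene counts as detected here when its level is 1 CPM or higher in each of the 3 libraries, which held for 36 of the 85 members (42.4%), against 23.2% of all genes in the table. Most rows of that table are not protein coding, however. Among genes annotated as protein coding, 36 of 83 members (43.4%) were detected, against 61.6% of all such genes, and 22 members (26.5%) had a mean of 10 CPM or more, against 46.4%. At 100 CPM or more the share was 9.64% of the members (8 genes) and 10.8% of all protein-coding genes. No count at all was found for 18 members, and 31 more had counts but missed the limit. As log2(CPM + 1), the median member stood at 0.57 ± 0.06 (SD over the library medians), beside 3.00 ± 0.04 for all protein-coding genes. Over all genes of the table it was 0.0066, and over genes with a count alone 0.49 ± 0.02. The last set drops rows without a count, whereas the members' median keeps 18 of them, so these 2 values are not on like sets.

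Together the members held 0.301%, 0.272% and 0.335% of the counts in replicates 1, 2 and 3. The 8 most abundant, Timp3, Adam15, Adamts1, Adam10, Timp2, Adam17, Mmp15 and Mmp28, made up 84.6 ± 1.66% of the family's reads (SD, n = 3), and the first 3 of these 53.0 ± 3.98%. Levels of different genes are compared per kb of exon, with 1 annotated exonic length per gene. That length need not be the length of the transcripts present, and ranks and ratios between genes depend on it. Timp3 had 95.8 ± 36.3 CPM per kb, Adam15 81.1 ± 8.83, Timp2 64.3 ± 5.66, Adamts1 63.7 ± 7.65 and Adam10 62.4 ± 8.91 CPM per kb. The ranges of Timp3 and Adam15 over the mice overlapped, as did those of Timp2, Adamts1 and Adam10, while Adam15 (75.7 to 91.3 CPM per kb) lay above Timp2 (60.6 to 70.8) in every library. Lower down stood Mmp15 at 26.9 ± 9.35, Mmp28 at 25.9 ± 3.31, Adam17 at 21.3 ± 1.87 and Adam9 at 16.9 ± 1.88 CPM per kb. Mmp28 overlapped both Mmp15 and Adam17. No other member was above 6.05 CPM per kb, the level of Adamtsl1.

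**Figure D1:**
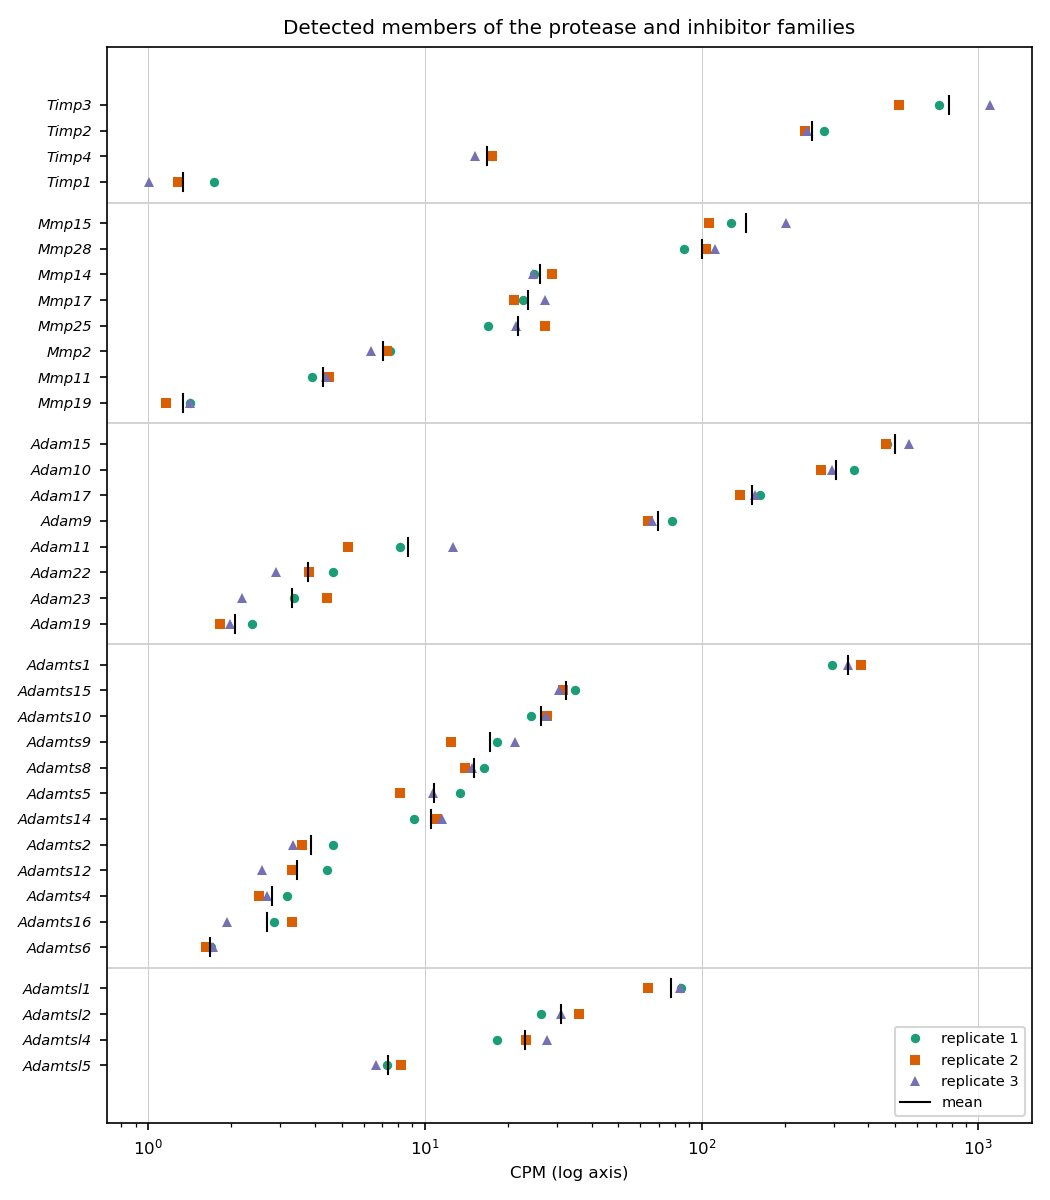
Level of each of the 36 detected members in CPM (log axis), 1 symbol per library and a bar at the mean, by family. Timp3 lies between 519 and 1101 CPM, Adam15 between 465 and 561 CPM and Adamts1 between 297 and 378 CPM, while Timp1, Mmp19 and Adamts6 lie just above the limit of 1 CPM.

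Among the inhibitors, Timp3 and Timp2 carried nearly all reads, and Timp1 was close to the limit of detection. Timp3, the TIMP that binds to the extracellular matrix and the one that also blocks ADAM17 and several ADAMTS proteases, had 722, 519 and 1101 CPM in replicates 1, 2 and 3. Replicate 3 was the highest and replicate 2 the lowest. Timp2, which besides inhibiting takes part in the activation of pro-MMP2 by MMP14, had 276, 236 and 240 CPM and varied little. Timp4, an inhibitor best known from heart and vessels, stood at 17.5, 17.5 and 15.2 CPM. Timp1, the member induced in inflammation and injury, had only 1.73, 1.28 and 1.01 CPM. Timp3 held 73.1 ± 7.26% of the reads of the 4 Timp genes.

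Within each library, per kb of exon, Timp2 exceeded Timp1 by 5.45 ± 0.29 on the log2 scale, a ratio of 43.6, and Timp3 exceeded Timp4 by 5.01 ± 0.65, a ratio of 32.3 (SD over 3 libraries). The difference between Timp3 and Timp2 was much smaller, 0.33, 0.07 and 1.13 in the 3 libraries, with a mean of 0.51 ± 0.56, and its size rests on replicate 3. These are 3 of 10 pairs of members that were compared within libraries. All 10 had the same direction in 3 of 3 libraries, but an exact sign-flip test over 3 libraries (two-sided) cannot go below p = 0.25, which each pair had, so none can be called. Timp3 shares 21.3% of its exonic length with Syn3 on the other strand, in an annotation of another build. Syn3 had 1.57, 1.15 and 1.63 CPM, a small fraction of the counts of Timp3. The strand setting of the counting was not given in the sources used here, so how reads in that stretch were assigned is not known.

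Summed per kb of exon, the Timp genes stood 2.67, 2.00 and 2.42 times as high as the 23 Mmp genes (mean 2.36 ± 0.339). Against the Adam genes the same ratio was 0.850, 0.767 and 1.04, and against the Adamts genes 2.27, 1.49 and 2.51. The sums take in all members of each family, Adam genes without protease activity included. The ratios are of transcript levels and say nothing of protein or of activity.

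**Figure D2:**
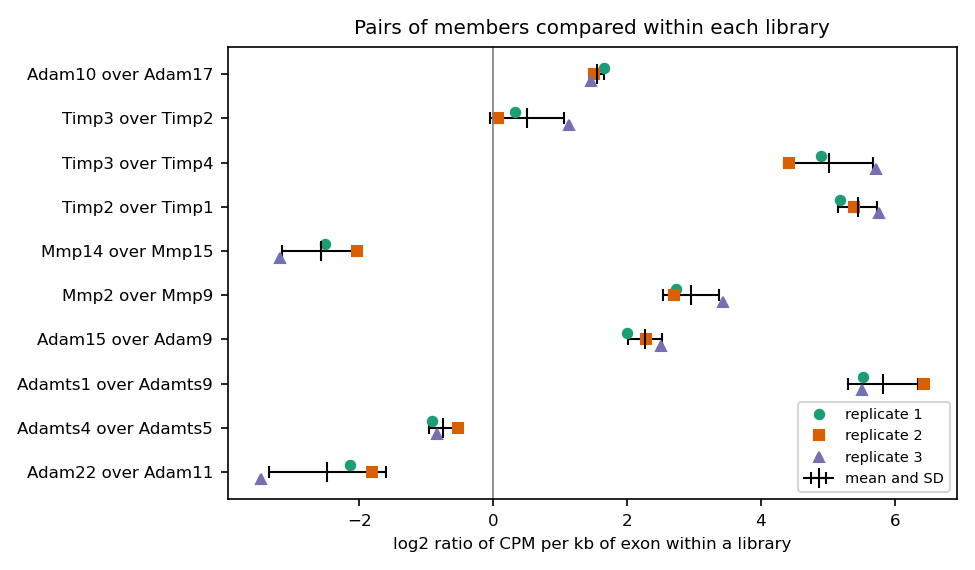
Log2 ratio of CPM per kb of exon for 10 pairs of members within each library, with 1 symbol per library and the mean ± SD as a bar. Every pair lies on 1 side of 0 in all 3 libraries, and the ratio of Timp3 to Timp2 comes closest to 0, at 0.07 in replicate 2.

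Of the 23 Mmp genes 8 (34.8%) were detected, against 61.6% of all protein-coding genes. These were 4 of 6 membrane-type genes (66.7%, close to the share of all protein-coding genes), Mmp28, Mmp2, Mmp11 and Mmp19. Collagenases and most stromelysins were not detected. By level, membrane-type genes (217 ± 51.1 CPM in sum) and Mmp28 held most of the 332 ± 59.7 CPM of the Mmp genes. Mmp15, which encodes the membrane-type enzyme MT2-MMP, had 127, 106 and 202 CPM in replicates 1, 2 and 3. Mmp14, the best studied membrane-type enzyme and the activator of pro-MMP2, had 24.7, 28.7 and 24.7 CPM. Per kb of exon the log2 ratio of Mmp14 to Mmp15 was -2.51, -2.03 and -3.18 in the 3 libraries, so Mmp15 was higher in each. Mmp17 (22.7, 20.9 and 27.2 CPM) and Mmp25 (16.9, 27.1 and 21.4 CPM), the membrane-type enzymes held by a lipid anchor, had 3.57 ± 0.493 and 4.10 ± 0.966 CPM per kb, close to the 4.37 ± 0.391 of Mmp14. Mmp16 and Mmp24 stayed below the limit, at 0.514 ± 0.0282 and 0.278 ± 0.0541 CPM.

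Mmp28, epilysin, a secreted enzyme, had 86.4, 103 and 112 CPM in the 3 libraries. Replicate 1 was the lowest. Of its exonic length 12% lies under 1700020L24Rik on the other strand, which had 18.4 to 22.3 CPM. The library kit keeps the strand, but the counting's strand setting was not given in the sources used here, so reads of these overlapping genes cannot be told apart with certainty. The same holds for Mmp19, at 1.33 ± 0.151 CPM, of which 28.3% lies under Tmem198b at 15.2 to 20.8 CPM, and for Mmp11 (4.27 ± 0.309 CPM, with Chchd10 over 5.58%). It also holds for Mmp24, of which 13.6% lies under BC029722 at 24.6 to 27.3 CPM.

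The gelatinases, the enzymes most often named in damage to the barrier, were low. Mmp2 had 7.50, 7.31 and 6.39 CPM, and Mmp9 had 1.18, 1.18 and 0.620 CPM, so that Mmp9 missed the limit in replicate 3 alone. Per kb of exon Mmp2 exceeded Mmp9 by 2.96 ± 0.42 on the log2 scale, a ratio of 7.77, and by 1.74 with a pseudocount of 0.5. Of the 5 genes for stromelysins, matrilysin and elastase, Mmp11 alone was detected. None of the 4 collagenases was, and the highest of them, Mmp8, the neutrophil collagenase, had 0.446, 0.186 and 0.0965 CPM.

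All 10 of the Mmp genes that lie side by side on chromosome 9, with no other protein-coding gene between them in RefSeq, were below the limit. In order along the chromosome these were Mmp13, Mmp12, Mmp1b, Mmp3, Mmp1a, Mmp10, Mmp8, Mmp27, Mmp20 and Mmp7. For 5 of them no read was counted, and their levels summed to 0.730, 0.615 and 0.379 CPM in replicates 1, 2 and 3. The 13 Mmp genes elsewhere in the genome summed to 293, 302 and 401 CPM, and 8 of these 13 were detected. Of all protein-coding genes 61.6% were detected, so the genes elsewhere did not stand out. The 10 genes are neighbours at 1 locus and may not be separate outcomes, and their difference from other genes was not tested. The enzymes of the cluster include the collagenases, the stromelysins MMP3 and MMP10 and matrilysin. Several of their genes are known to be switched on by inflammatory signals through AP-1 (the Fos and Jun transcription factors).

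The promoters of 3 abundant members and of 3 genes of the chromosome 9 cluster that hold both motifs searched are shown to let their letters be compared. Each line gives the 150 bases before the transcription start in RefSeq, GRCm38.p6, read 5′ to 3′ along the gene. In the first 3, of the abundant genes Timp3 (chr10:86300262-86300411, plus strand), Adam15 (chr3:89350029-89350178, minus strand) and Adam10 (chr9:70678832-70678981, plus strand), capitals mark each CG dinucleotide. In the other 3, of Mmp13 (chr9:7272364-7272513), Mmp3 (chr9:7445672-7445821) and Mmp10 (chr9:7502192-7502341), all on the plus strand, capitals mark the AP-1 motif TGANTCA, which reads the same on both strands, and the TATA motif TATAAA.
Timp3: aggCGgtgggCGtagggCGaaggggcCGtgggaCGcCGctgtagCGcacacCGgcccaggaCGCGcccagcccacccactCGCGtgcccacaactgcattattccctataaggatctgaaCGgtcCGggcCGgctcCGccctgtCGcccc
Adam15: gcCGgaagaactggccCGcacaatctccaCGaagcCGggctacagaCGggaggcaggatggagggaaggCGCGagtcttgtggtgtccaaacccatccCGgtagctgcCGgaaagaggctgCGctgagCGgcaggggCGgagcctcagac
Adam10: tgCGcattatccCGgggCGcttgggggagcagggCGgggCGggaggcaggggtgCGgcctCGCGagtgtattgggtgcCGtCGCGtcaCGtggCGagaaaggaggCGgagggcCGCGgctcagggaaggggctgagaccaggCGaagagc
Mmp13: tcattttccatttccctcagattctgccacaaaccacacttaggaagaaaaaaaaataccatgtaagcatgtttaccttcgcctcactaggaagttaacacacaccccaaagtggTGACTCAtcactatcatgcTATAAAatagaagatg
Mmp3: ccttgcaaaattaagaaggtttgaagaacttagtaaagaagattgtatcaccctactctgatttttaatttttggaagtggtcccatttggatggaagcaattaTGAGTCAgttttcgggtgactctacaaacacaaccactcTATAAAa
Mmp10: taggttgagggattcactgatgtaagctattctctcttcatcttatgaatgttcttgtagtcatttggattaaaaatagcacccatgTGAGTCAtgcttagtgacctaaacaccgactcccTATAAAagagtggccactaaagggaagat

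RefSeq windows of 250 bases before the start were found for 54 of the 85 members, some with more than 1 start, which gave 59 windows. The 25 windows of detected members held a median of 17 CG dinucleotides, from 2 to 35, and the 34 windows of members not detected a median of 1, from 0 to 39, beside 10 over 21262 windows of protein-coding genes. Among the genes of 100 CPM or more, Adam10 had 29 and no window had fewer than 14. Of these 8 windows 0 held TGANTCA and 1 held TATAAA. The latter was that of Adamts1 (338 CPM, 15 CG dinucleotides), which is not among the promoters printed. The printed lines therefore do not show every pattern found among the abundant genes. In the chromosome 9 cluster 8 of 12 windows (66.7%) held TGANTCA and 7 (58.3%) held TATAAA on either strand. For the 9 windows of other Mmp genes the counts were 0 and 1. For the detected members the shares were 4% and 8%, for all members not detected, the cluster included, 32.4% each, and for all protein-coding genes 6.13% and 11.6%. Adamts3, with 35 CG dinucleotides, was not detected at 0.0886 ± 0.0511 CPM, and Timp4, with 2, was detected at 16.7 ± 1.34 CPM, so the ranges of CG content overlapped. A match of letters is a description and not a site.

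**Figure D3:**
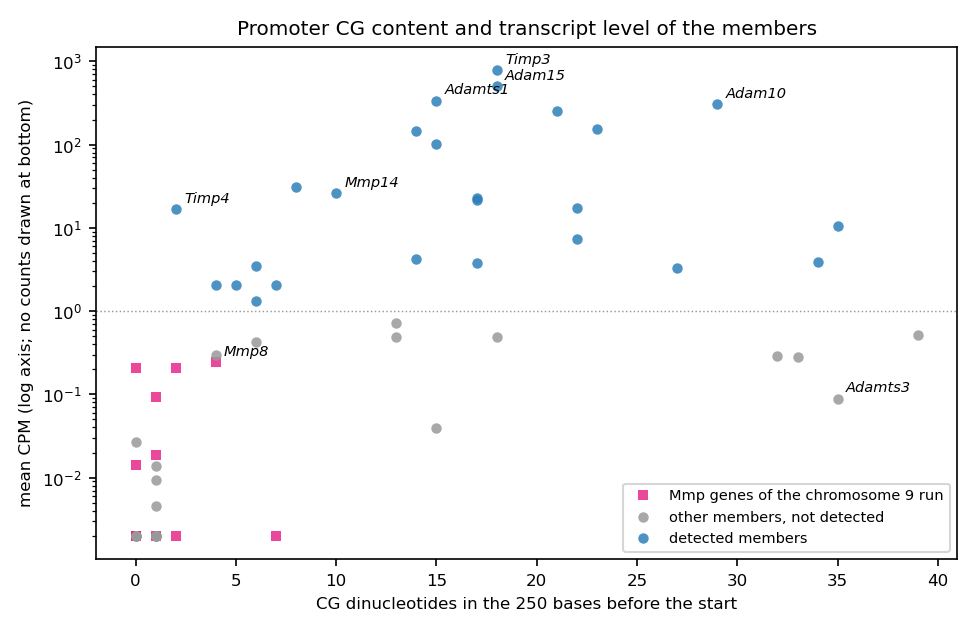
Mean level in CPM (log axis, genes without counts at the bottom) against the number of CG dinucleotides in the 250 bases before each RefSeq start, 1 symbol per start, for 54 members. Detected members are blue, the Mmp genes of the chromosome 9 run are squares, with at most 7 CG dinucleotides, and the dotted line is 1 CPM.

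Of 9 ADAMs that work as proteases in body tissues, 5 were detected and 4 exceeded 60 CPM, whereas none of 21 ADAMs of the male reproductive tract was detected, and 11 of these had no count. Adam15, which encodes a membrane protease with a disintegrin domain, had 469, 465 and 561 CPM. Adam10, the main alpha-secretase of the amyloid precursor protein and the protease that starts Notch cleavage, had 355, 269 and 296 CPM. Adam17, which releases TNF and ligands of the EGF receptor, had 163, 137 and 156 CPM. Per kb of exon the ranges of the 3 genes over the mice did not overlap, with Adam15 highest and Adam17 lowest. Adam10 exceeded Adam17 by 1.55 ± 0.10 on the log2 scale, a ratio of 2.92. Adam9, another broad protease, had 78.2, 63.9 and 66.1 CPM, and Adam15 exceeded it by 2.27 ± 0.25 on the log2 scale per kb, a ratio of 4.81. Of the length of Adam15, 20.6% lies under 4731419I09Rik, which had at most 0.107 CPM, and how reads in that stretch were assigned is not known.

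Adam19 was near the limit at 2.06 ± 0.291 CPM, and Adam12 (0.435 ± 0.184 CPM), Adam8 (0.422 ± 0.152 CPM), Adam33 (0.179 ± 0.0450 CPM) and Adam28 were under it. The 3 ADAMs without protease activity, known from synapses, were all detected at low level. Adam11 had 8.11, 5.29 and 12.6 CPM, Adam22, a receptor of the synaptic protein LGI1, 4.65, 3.82 and 2.89 CPM, and Adam23 3.36, 4.44 and 2.18 CPM. Adam11 was highest in replicate 3, where Adam22 and Adam23 were lowest. Per kb of exon the log2 ratio of Adam22 to Adam11 was -2.14, -1.81 and -3.47. The neuronal markers Rbfox3, Snap25 and Syt1 had means of 1.68, 8.65 and 6.69 CPM in the same libraries, summing to 24.2, 14.6 and 12.3 CPM. Their part in the levels of these ADAM genes was not tested. Adam3, a sperm gene, missed the limit in replicate 3 alone, at 1.01, 1.02 and 0.703 CPM. Adam1a and Adam1b share a stretch of 1205 bases at 98% identity or more, and Adam1a lies under Gm42878 on the same strand over 63.7% of its exons, so their low levels (0.297 ± 0.0827 and 0.0138 ± 0.0239 CPM) are uncertain.

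**Figure D4:**
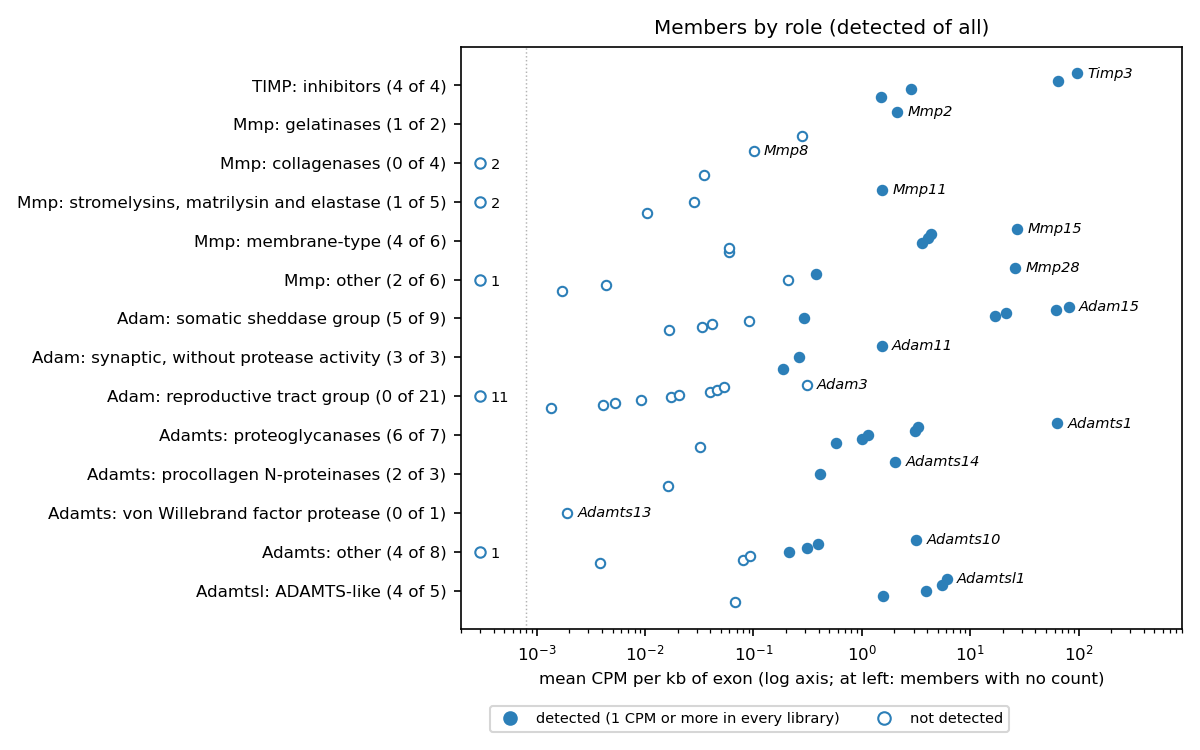
Mean CPM per kb of exon of 84 members by role group (log axis). Filled symbols are detected members, open symbols members below the limit, left of the dotted line the number counts members without reads, and the highest gene of each group is named. The 21 reproductive ADAMs and the 4 collagenases hold no detected gene.

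Adamts1 held most reads of the ADAMTS proteases, and 6 of the 7 genes that cut proteoglycans were detected. Adamts1, a protease of versican and aggrecan that is known to restrain angiogenesis, had 297, 378 and 338 CPM and 63.7 CPM per kb, where the next Adamts gene, Adamts8, had 3.26 ± 0.269 CPM per kb. Replicate 2 was the highest and replicate 1 the lowest, as for the sum of the early response genes. Their part in the level of Adamts1 was not tested. The other proteoglycan-cutting members were Adamts15 (34.7, 31.6 and 30.6 CPM), Adamts9 (18.2, 12.4 and 21.1 CPM), Adamts8 (16.4, 14.0 and 14.8 CPM), Adamts5 (13.4, 8.11 and 10.7 CPM) and Adamts4 (3.18, 2.53 and 2.68 CPM), while Adamts20 was below the limit at 0.286 ± 0.0648 CPM. Per kb of exon Adamts1 exceeded Adamts9 by 5.82 ± 0.53 on the log2 scale, a ratio of 56.6, and by 4.32 without scaling by length. The log2 ratio of Adamts4 to Adamts5, the other main aggrecanase, was -0.91, -0.52 and -0.84.

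Adamts10, which binds fibrillin microfibrils, had 24.1, 27.6 and 27.3 CPM. Of the proteases that trim procollagens, Adamts14 had 10.6 ± 1.30 CPM and Adamts2 3.87 ± 0.703 CPM, and Adamts3 was not detected. Adamts13, the protease of von Willebrand factor that is made mainly in liver, had 0, 2 and 2 counts, although its substrate gene Vwf stood at 2194 ± 378 CPM. Adamts12 (3.44 ± 0.940 CPM), Adamts16 (2.69 ± 0.701 CPM) and Adamts6 (1.67 ± 0.0486 CPM) were detected near the limit, and Adamts17 missed it at 0.721 ± 0.0225 CPM.

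The ADAMTS-like genes encode matrix proteins that resemble ADAMTS proteases but lack the catalytic domain, and 4 of the 5 were detected. Adamtsl1 had 84.0, 63.8 and 83.8 CPM, Adamtsl2 26.3, 36.0 and 31.1 CPM and Adamtsl4 18.2, 23.2 and 27.6 CPM. Adamtsl1 was lowest in replicate 2, where Adamtsl2 was highest, and Adamtsl4 was highest in replicate 3. Adamtsl5 had 7.38 ± 0.773 CPM, and Adamtsl3 was below the limit at 0.522 ± 0.0910 CPM.

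No member passed the test for more spread between the mice than genes of like abundance show. Using the quasi-dispersions of edgeR, 0 of the 52 members kept by the filter on low counts passed at an adjusted p of 0.05, where 15 of 18087 genes (0.0829%) did, and DESeq2 marked 0 members as dispersion outliers. At an unadjusted p under 0.05 the test named 6 of the 52 members (11.5%), against 5.18% of all genes tested. These were Mmp15 (adjusted p = 0.760), Adam11 (0.793), Timp3 (0.900), Mmp8 (0.930), Adamts9 (0.942) and Mmp25 (0.959), all by edgeR. Mmp8, whose libraries differed by up to 4.62-fold at low counts, did not pass, and its mean of 0.243 CPM was 0.141 CPM without replicate 1, so missing the threshold does not show that levels were alike.

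Of these 6, Timp3, Mmp15, Adam11 and Adamts9 had replicate 3 highest and replicate 2 lowest. Mmp8 was highest in replicate 1, with 58, 26 and 14 counts, and the red blood cell markers Hbb-bs, Hba-a1 and Alas2 were in the same order, with 599, 69.8 and 32.6 CPM for Hbb-bs. Mmp25 was highest in replicate 2. Among members below the filter, Adam28 had 6, 55 and 2 counts and was thus high in replicate 2, the library with 1233 CPM of growth hormone (Gh) beside 0.108 and 0.262 CPM in replicates 1 and 3. The sum of the 3 smooth muscle markers, 5138, 4537 and 5203 CPM, was also highest in replicate 3 and lowest in replicate 2. Acta2 and Myl9 had that order, whereas Myh11 was highest in replicate 1 and lowest in replicate 3, with 1521 CPM in replicate 1 and 1383 CPM in replicate 3. The microglia markers, summing to 4358, 3243 and 3911 CPM, were each lowest in replicate 2 as well. Among them Tmem119 was highest in replicate 3, and Cx3cr1, Csf1r and P2ry12 in replicate 1. Of the endothelial markers, Pecam1, Cdh5, Flt1 and Erg were highest in replicate 3 too and Cldn5 in replicate 2, and all 5 were lowest in replicate 1. The part of these markers in the levels of Timp3, Mmp15, Adam11, Adamts9, Mmp8 and Adam28 was not tested.

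Over the 36 detected members, the highest library was replicate 1 for 16 (44.4%), replicate 2 for 10 (27.8%) and replicate 3 for 10 (27.8%), beside 34.5%, 28.7% and 36.8% of all 13211 detected genes. Scaled by library totals without TMM, replicate 3 was highest for 8 members (22.2%) and for 22.8% of detected genes, so these shares depend on the scaling. The highest library exceeded the lowest by a median of 1.30-fold, from 1.06-fold for Adamts6 to 2.38-fold for Adam11. The ratio was over 1.5 for 12 of 36 members (33.3%) and for 12.2% of all detected genes, whose median was 1.20-fold. These shares are not matched for abundance. Among the 12, Adam11, Adam22, Adam23, Adamts12, Adamts16 and Timp1 had means under 10 CPM, and the others 10 CPM or more. The dispersion test, which compares genes of like abundance, called 0 of 52 members. Its higher share of members at an unadjusted p under 0.05 was not seen without replicate 3.

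**Figure D5:**
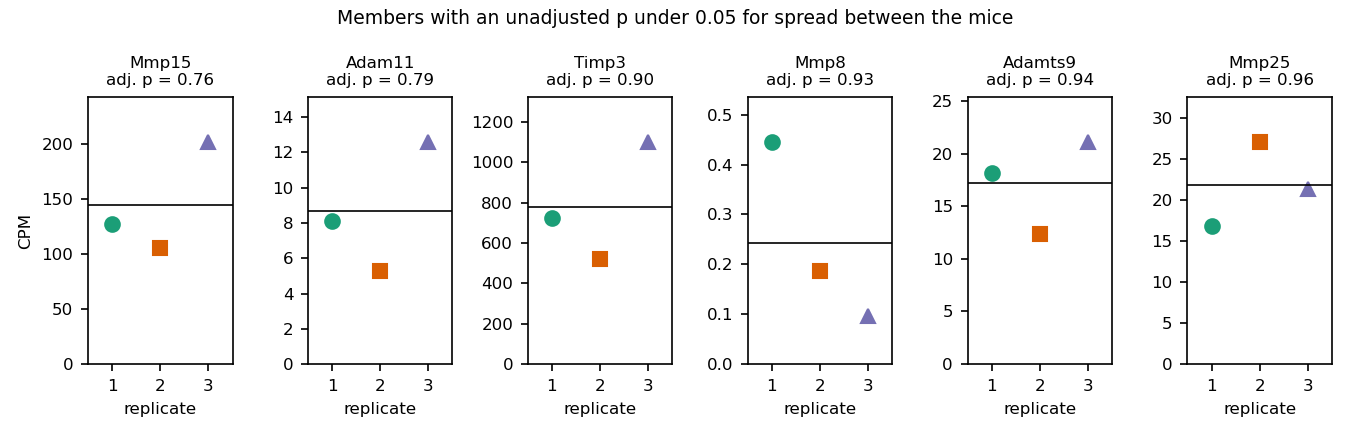
Level in CPM of the 6 members with an unadjusted p under 0.05 in edgeR's dispersion test, 1 symbol per library and a line at the mean, each axis starting at 0. Timp3, Mmp15, Adam11 and Adamts9 share the order of the libraries, and the lowest adjusted p of the 6, by edgeR, is 0.760.

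Of 57 genes listed for a part in protease activation, inhibition, guidance or binding, or as substrates, 51 (89.5%) were detected, against the 61.6% of protein-coding genes given above. The listed inhibitors include those of cysteine and serine proteases, and the lists were chosen with earlier results of these data known. Among 8 genes of precursor cleavage and plasminogen activation, 7 were detected. Plat, tissue plasminogen activator, had 574, 346 and 943 CPM, in the same order of libraries as Timp3, and did not pass the dispersion test (edgeR adjusted p = 0.613). Furin, the convertase that trims membrane-type MMPs and ADAMs, had 189 ± 15.5 CPM and Pcsk7 51.2 ± 5.18 CPM. Plg, the plasminogen gene, which is expressed in liver, was close to 0 at 0.0142 ± 0.00649 CPM.

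Among 9 genes listed as other inhibitors, 7 were detected. Reck, a membrane-anchored inhibitor of MMPs and part of the Wnt7 receptor of brain endothelium, had 236 ± 31.3 CPM. Cst3, an inhibitor of cysteine proteases, had 3537 ± 170 CPM (2794 ± 134 per kb), Spock2, a testican proteoglycan, 6334 ± 1279 CPM (1145 ± 231 per kb), and Serpine2, an inhibitor of serine proteases, 243 ± 22.3 CPM (29.3 ± 2.70 per kb). Serpinf2 was not detected at 0.0759 ± 0.0418 CPM. Spock2 held 60.6 ± 4.91% of the reads of this list. A place in the list does not show that a product inhibits metalloproteinases, which was not tested for Spock2 either.

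Of the 9 genes that guide ADAM10 and ADAM17, 8 were detected. Tspan5 (285 ± 25.4 CPM) and Tspan14 (228 ± 20.0 CPM) are tetraspanins that help ADAM10 to the surface, with 38.6 ± 3.44 and 85.9 ± 7.56 CPM per kb. Rhbdf2, the iRhom that does the same for ADAM17, had 61.6, 81.7 and 106 CPM and was lowest in replicate 1. Tspan10 was not detected at 0.0528 ± 0.0350 CPM.

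All 7 genes of binding, uptake and induction were detected. Bsg, which encodes basigin, also called the MMP inducer EMMPRIN, had 9702 ± 810 CPM, Cav1 603 ± 85.5 CPM and Lrp1, a receptor that takes up proteases and inhibitors, 363 ± 47.7 CPM. Cd44, a docking protein of MMP9, had 2.67 ± 0.631 CPM.

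Membrane substrates were detected for 11 of 12 genes, with App at 2695 ± 110 CPM, Cdh5 at 1068 ± 60.9 CPM and Tek at 934 ± 40.0 CPM among them, and with Tnf below the limit at 0.178 ± 0.0192 CPM. Matrix substrates were detected for 11 of 12. Fn1 (fibronectin) had 2415, 2578 and 3559 CPM, a mean of 244 ± 53.0 CPM per kb, and Col4a1, a collagen of the basement membrane, 1488 ± 272 CPM, or 199 ± 36.4 CPM per kb. Per kb, the proteoglycans that ADAMTS proteases cut were lower: Bcan had 12.7 ± 3.23, Ncan 5.54 ± 1.82, Vcan 0.144 ± 0.0139 and Acan 0.0550 ± 0.0178 CPM per kb.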

How the data were processed

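The 3 libraries, 1 per replicate of brain microvascular fragments, were grouped by their titles. The authors deposited unnormalized counts, whole numbers for each gene. They used featureCounts and Subread 1.4.6-p5 with GRCm39, per the submitters' processing notes. For the aligner, annotation release, strand setting and multi-mapping reads, the choice was not given in the sources used here. From these counts CPM were computed with TMM effective library sizes (edgeR 4.0.16, R 4.3.3; factors 1.01, 1.02 and 0.965). Python 3.11.15 and pandas 2.3.3 served for the lists. Exonic lengths, exon overlaps and identity (blastn 2.17.0) came from GENCODE M21, build GRCm38, matched by symbol for 84 of 85 members. The lengths are per gene, and which transcripts were expressed was not tested. Of all counts, 98.3% fall on genes with a length. Promoters came from RefSeq, GRCm38.p6.

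Variability between mice was tested with an intercept-only edgeR quasi-likelihood fit over the 18087 genes kept by filterByExpr. It was an upper-tail F test of each gene's quasi-dispersion against the trended prior, with Benjamini-Hochberg adjustment. A trial on simulated data drew every gene at the trended dispersion, so it does not show how many shifts the test would find in these data. The p-values set a gene's spread between these samples against the trend for genes of like abundance. Alternatives were other limits, pseudocounts, scalings, priors, DESeq2 1.42.0 and leaving out each library. Named were all Timps, members of 10 CPM or more, members of the pairs, those with an unadjusted p under 0.05, the highest of each role group and those nearest to the limit, and for other genes the 3 highest and the lowest of each list with Bsg, Reck, Furin and Lrp1; further genes were named after their values were seen. Adam34l, without a count, was in no role group. A planned search of protein sequences was not run. Members and lists were chosen with earlier results of these data known.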

Additional observations from a re-analysis of the deposited data

How the results depend on the processing

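The number of detected members (36) ranged from 31 at 2 CPM to 39 at 0.5 CPM, was 35 with library totals, 36 with DESeq2 size factors and 36 to 38 when 1 library was left out. Around the limit lay Timp1 (1.73, 1.28 and 1.01 CPM), Mmp19, Adamts6 and Adam19 on the upper side and Adam3, Mmp9, Adamts17 and Mmp16 on the lower. The family's median of 0.57 on the log2 scale was -0.0185 with a pseudocount of 0.5, 0.12 per kb of exon and 4.15 over the detected members alone, 0.57 with DESeq2 size factors and 0.54 to 0.59 without 1 library. The first of these follows from the pseudocount itself, and the third from leaving out the members below the limit. The members' share of counts, 0.303 ± 0.0318%, was 0.286 to 0.318% without 1 library. Members called by the dispersion test stayed at 0 in all 7 alternatives, although the calls over all genes, 15, became 15 with DESeq2 size factors, 173 without the filter, 0 with a robust prior (785 at an unadjusted p under 0.05), 137 by DESeq2's outlier rule, and 7, 80 and 33 without replicates 1, 2 and 3. The cause was not tested. At an unadjusted p under 0.05, edgeR's dispersion test named 6 of 52 members in the reported fit, beside 937 of 18087 genes. Without replicates 1, 2 and 3 it named 6 of 53, 4 of 52 and 2 of 52 members. The counts over all genes were then 1073 of 18436, 1188 of 18362 and 975 of 18482. The higher share among members was thus not seen without replicate 3. The lowest adjusted p of a member over the edgeR alternatives was 0.0745, for Adam28 without the filter, and 0.124 for Mmp8 without replicate 2. All 10 pairs kept their direction in every library without length scaling; a common pseudocount or a library left out could not have turned a direction that all 3 libraries shared. Without length scaling the log2 ratio was 1.57 for Timp3 over Timp2 (0.51 per kb), 7.58 for Timp2 over Timp1 (5.45), 4.32 for Adamts1 over Adamts9 (5.82), -1.92 for Adamts4 over Adamts5 (-0.75) and -1.13 for Adam22 over Adam11 (-2.47). With the pseudocount it was -1.36 for Adam22 over Adam11 and 1.74 for Mmp2 over Mmp9 (2.96). The other pair ratios moved by less than 1.5-fold. Detected members highest in replicate 3 numbered 10, and 8 and 12 with library totals and DESeq2 size factors, an alternative chosen after seeing the data. Likewise, 51 and 49 partner genes were detected at 0.5 and 2 CPM. The levels of 29 named members moved by less than 1 SD with library totals and with DESeq2 size factors. With a library left out, Mmp8 alone moved by more than 1.5-fold, with 0.141 CPM without replicate 1 and 0.243 CPM over all 3 libraries. Replicates number 3, and in a single library a level under about 0.02 CPM rests on 3 counts or fewer. No paired analysis was possible because all libraries belong to 1 group; the ratios within a library compare genes, not groups.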
